A study of Aspergillus luchuensis with 6 samples.

Results

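Divergent start site pairs are places where 2 strong transcription start sites lie back to back, with transcription running left from the first and right from the second. They were found in CAGE data (cap analysis of gene expression, in which each sequenced tag marks the capped 5′ end of a transcript) of Aspergillus luchuensis mut. kawachii, a mould used to make koji. On each strand, positions with 2 or more tags over 6 libraries formed a cluster with any neighbour within 20 bp. Clusters with 100 or more pooled tags on scaffold 1 (DF126447.1) or scaffold 2 (DF126448.1) were then taken in order of tags, and any other whose peak was under 2000 bp away on the same strand was dropped. This left 1211 leading clusters. Members were thus chosen by their pooled tags, positions and spacing over all 6 libraries. A member pair is a leading minus-strand cluster with a leading plus-strand peak 1 to 500 bp to its right. There were 186 such pairs, 124 on scaffold 1 and 62 on scaffold 2. Their 372 clusters were 30.7% of the leading clusters, of 36260 clusters in the whole table.

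Rice koji, which is steamed rice grown through by the mould, was made with a control strain, labelled ctrl4, or with a sirtuin D disruptant, labelled sirD, and 3 libraries were sequenced from each. Nothing further on the genotype of the control is given in the sources used here. Each group is 1 strain, and no label says that its libraries stem from separate cultures. The p-values therefore reflect library-to-library spread only, possibly of technical origin. Sirtuins are NAD-dependent deacylases, and several fungal ones act on histones.

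In budding yeast, where this is best studied, a promoter is a stretch with few nucleosomes, and the machinery that starts transcription can assemble at both of its edges. The partner of a gene's start site can then be the start of a neighbouring gene that points the other way, or of a noncoding transcript. Genes that share such a stretch can be regulated together or separately. A genome and gene models matching the scaffold coordinates were not used here, so neither the sequences of the pairs nor the genes beside them are given.

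The table held 3148498 to 3580777 tags per library, of which 1419740 to 1634990 lay on the scaffolds. Member clusters took 26.2%, 28.5% and 28.1% of control scaffold tags, and 29.0%, 29.3% and 29.4% of disruptant scaffold tags. The strains did not overlap in this share, but 3 libraries against 3 cannot go below p = 0.1 (two-sided exact permutation test, p = 0.1, adjusted over 7 such tests 0.42). On scaffold 2 the table had no rows between 4747 and 10003, 47454 and 100012, or 474755 and 1000003, so pairs there were not analysed here. The table ends at the row limit of a spreadsheet and may be cut, so its counts of clusters and pairs are those of the rows it holds.

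Most pairs had their peaks within a narrow range of distances. The spacing was 9 to 494 bp, with a median of 206.5 bp and quartiles of 160 and 303 bp. If the strands follow different position conventions, each spacing shifts by 1 bp. In all, 114 of the 186 pairs (61.3%) were spaced 100 to 250 bp, with 54 at 150 to 200 bp, and only 2 were closer than that range. Here and below, a range of spacing leaves out its lower limit. Neighbouring leading clusters that pointed away from each other at 500 to 1000 bp numbered 93, at 1000 to 1500 bp 47 and at 1500 to 2000 bp 25. Leading clusters that pointed towards each other were rarely this close, with 18 adjacent pairs at 1 to 500 bp of 433 in that orientation. Spacing chose the members, so these counts are a description.

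**Figure D1:**
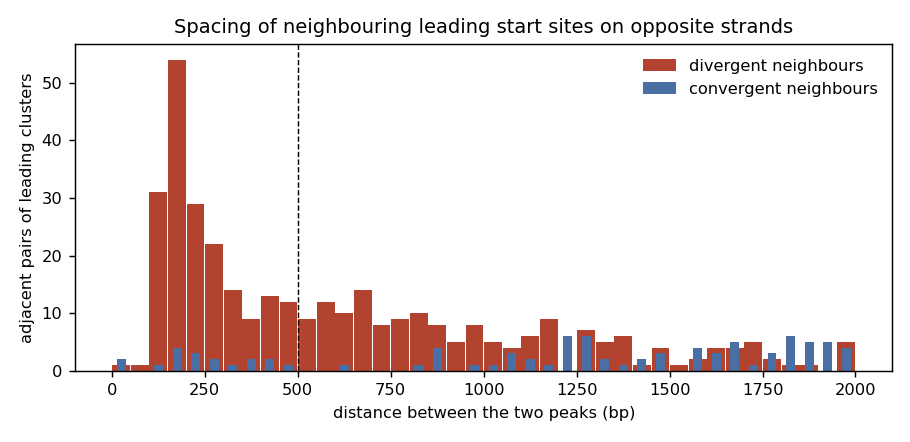
Number of adjacent pairs of leading start site clusters on opposite strands, in steps of 50 bp of the distance between the peaks (bp), for divergent (red) and convergent (blue) neighbours. The dashed line marks the 500 bp limit, and the tallest bar holds the 54 divergent pairs at 150 to 200 bp.

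The widest member pair, at 494 bp, had its peaks at 1075580 and 1076074 of scaffold 2, with 192 minus and 6922 plus tags. The next wider divergent neighbours, at 508 bp, lay on scaffold 1 at 1169880 and 1170388 with 1525 and 495 tags. The member with the fewest tags, with its peak at 1374877 of scaffold 1, was just above the floor of 100, and the nearest pair left out for too few tags had 99 on its plus side (peak at 1567794 of scaffold 1). The nearest leading neighbour of any member on its own strand was 2003 bp away, and the farthest cluster dropped was 1999 bp from a leading peak.

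The bulk of the tags of the partners lay apart. Between the inner edges of the bases that held the central 80% of each partner's tags, the median gap was 155 bp (quartiles 123 and 236.5 bp), and those intervals overlapped in 2 pairs. The whole clusters overlapped in 16 pairs, and in 6 of these 1 cluster lay inside the other. The closest pair was of this last kind. Its minus partner at 1450816 to 1450960 of scaffold 2 lay within a broad plus cluster at 1450232 to 1451072, with peaks 9 bp apart.

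The partners of a pair were mostly of unequal strength. The stronger had a median of 5.99 times the pooled tags of the weaker (quartiles 2.25 and 21.1). They were within 2-fold of each other in 40 pairs, over 10-fold apart in 73 and over 100-fold apart in 12. Neighbouring leading clusters of any other arrangement had a similar median, 5.74-fold over 1023 pairs. The minus partner was the stronger in 103 pairs and the plus partner in 83. Across the 186 pairs, the log pooled tags of the partners correlated at r = −0.22 (Spearman's rho −0.21), where the floor of 100 tags and shared libraries bear on every point. Closer pairs were somewhat less unequal, at 4.67-fold for 100 to 200 bp, 5.95-fold for 200 to 300 bp, 9.40-fold for 300 to 400 bp and 6.96-fold for 400 to 500 bp. These strengths were part of the choice of members and carry no test.

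The extremes show how far this goes. In the pair with most tags, at 267134 and 267369 of scaffold 2, the minus partner had 46870, 61090 and 50506 tags in the control and 62954, 70891 and 69834 in the disruptant libraries. Its plus partner, whose cluster lay within the span of the minus one, had 11, 21 and 18 in the control and 21, 19 and 11 in the disruptant. The strains overlapped in the plus partner, and the stronger partner had 3586 times its tags. At the other end, the partners at 587171 of scaffold 1 and to its right had 3498 and 3489 tags, a pair chosen after its values were seen.

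Which partner led was then compared between strains, library by library. The plus partner was the stronger in 44.6% ± 0.538 of pairs for the control and 43.4% ± 0.821 for the disruptant strain (SD, n = 3, p = 0.2 by an exact two-sided permutation test whose smallest p is 0.1, adjusted 0.42). The median absolute log2 ratio of the partners, from counts scaled by library size (CPM) plus 1, was 2.53 ± 0.0822 for the control and 2.62 ± 0.0369 for the disruptant strain (SD, n = 3, exact permutation p = 0.2, adjusted 0.42). By the strain means, the stronger strand was the other one in 10 of 186 pairs.

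By their median width, paired start sites were more compact than unpaired ones. The central 80% of a member's tags spanned a median of 48.0 bp (quartiles 33.0 and 80.2 bp), and its peak base held a median of 17.9% of the tags. The 839 leading clusters outside the pairs spanned 68.0 bp with 16.8% at the peak. Widths over 100 bp were found in 67 of 372 members and 278 of the 839 others. Widths up to 10 bp were found in 3 members and 15 others. The upper quartile of the peak share was 24.2% for members and 24.6% for the others. In single libraries the medians were 47 to 50 bp for members and 66 to 69 bp for the others, so no library overlapped. The same order was seen among clusters of 1000 or more tags, at 57.0 bp for 245 members and 77.0 bp for 461 others. No test of this difference was made.

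Over all pairs width also went with spacing, and it went with strength. The median was 43.0 bp at spacings of 100 to 200 bp, 52.5 bp at 200 to 300 bp, 57.5 bp at 300 to 400 bp and 67.0 bp at 400 to 500 bp. This order was not seen in pairs with 1000 or more tags on both sides. There the medians were 47.5, 45, 39.5 and 107 bp (33, 23, 8 and 11 pairs). Stronger partners spanned 57.0 bp and weaker ones 44.0 bp. Within a pair the log widths were only weakly related (r = 0.12, rho 0.13, 186 pairs, described across pairs that share libraries). A member's tags lay more often downstream than upstream of its peak, with more tags downstream in 228 of 372 members and in 487 of 839 unpaired clusters. The difference in width between strains was within the spread between libraries, at 48.0 ± 1.32 bp for the control and 49.3 ± 0.764 bp for the disruptant strain (SD of library medians, n = 3, p = 0.3 by an exact two-sided permutation test, adjusted 0.42).

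**Figure D2:**
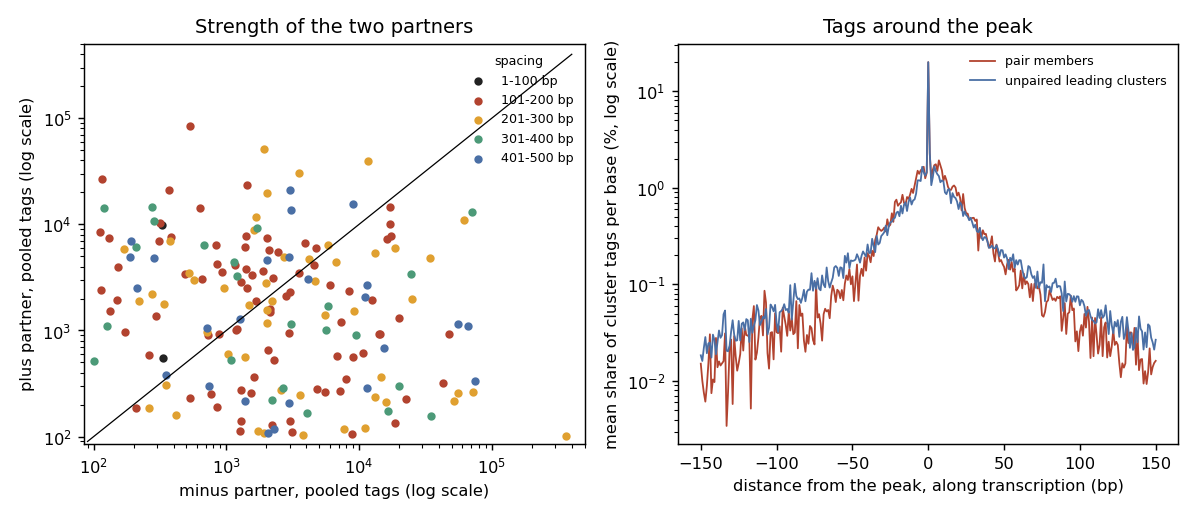
Left, pooled tags of the minus and plus partner of each of the 186 pairs (log scales), coloured by the distance between the peaks, with the line of equal strength; points lie far from the line on both sides, with a median ratio of 5.99. Right, mean share of a cluster's tags at each base (%, log scale) against the distance from its peak along transcription (bp), for 372 pair members and 839 unpaired leading clusters; beyond 50 bp on either side the member curve is mostly the lower.

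The next comparison asked which of these start sites changed when sirtuin D was disrupted. All 372 members passed the count filter and were tested with all other clusters of the table by edgeR's quasi-likelihood test with Benjamini-Hochberg adjustment, and called below 0.05. Of the members 94 were called, 31 higher and 63 lower in the disruptant. The background was 24.5% of all 4083 tested clusters (10.4% higher, 14.0% lower) and 31.0% of all leading clusters (13.4% higher, 17.7% lower). The members' 25.3% (8.33% higher, 16.9% lower) was near that of all clusters and under that of leading clusters. The first reading depends on the count filter, since without it 21.2% of members and 9.71% of all 11469 tested clusters were called. The lower members fell by a median of 0.91 on the log2 scale and up to 3.65, with 24 at least 2-fold and 5 at least 4-fold lower. The higher members rose by a median of 0.59 and at most 1.54, with 4 at least 2-fold higher. In all 94 the strains did not overlap, which held for 161 of 372 members (43.3%) and 39.7% of all tested clusters. A change of at least 2-fold was called in 28 members (7.53%, against 13.8% of all tested clusters). The strands were called in similar numbers, with 31 minus and 32 plus partners lower and 16 minus and 15 plus partners higher.

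Above 100 bp, the share of changed start sites was higher at wider spacings. The 2 pairs closer than that had 3 of 4 members called, all lower. At 100 to 200 bp, 29 of 170 members (17.1%) were called, 15 of them lower. At 200 to 300 bp 25 of 102 (24.5%) were called, 13 lower, and at 300 to 400 bp 15 of 46 (32.6%), 12 lower. At 400 to 500 bp 22 of 50 (44.0%) were called, of which 20 were lower and 2 higher. Beyond the members, divergent neighbours at 500 to 2000 bp had 120 of 330 (36.4%) called, and those above 2000 bp had 66 of 164 (40.2%). In the 4 bins in order, the median pooled tags of stronger partners were 4260, 5520, 6106 and 4933, and those of weaker partners 661, 601, 303 and 678, lowest at 300 to 400 bp.

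The median absolute log2 difference was 0.22, 0.21, 0.31 and 0.43 in the same order of spacing, against 0.32 over all adjacent pairs. In pairs with 1000 or more tags on both sides the called shares were 10.6% of 66, 19.6% of 46, 31.2% of 16 and 40.9% of 22 members. Their median absolute log2 differences were 0.17, 0.19, 0.27 and 0.21, so by this measure the widest bin was not the largest. With 1 library left out, the called shares ran from 10.6% to 14.1%, 19.6% to 26.5%, 26.1% to 34.8% and 34.0% to 40%, in the same order of bins with any library left out. The 29 calls at 100 to 200 bp became 18 without control replicate 3, 19 without disruptant replicate 2 and 19 without disruptant replicate 3. Across pairs, spacing and the mean absolute log2 difference correlated at r = 0.21 (rho 0.20, 186 pairs sharing libraries). This is a description, and no test of a trend was made.

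**Figure D3:**
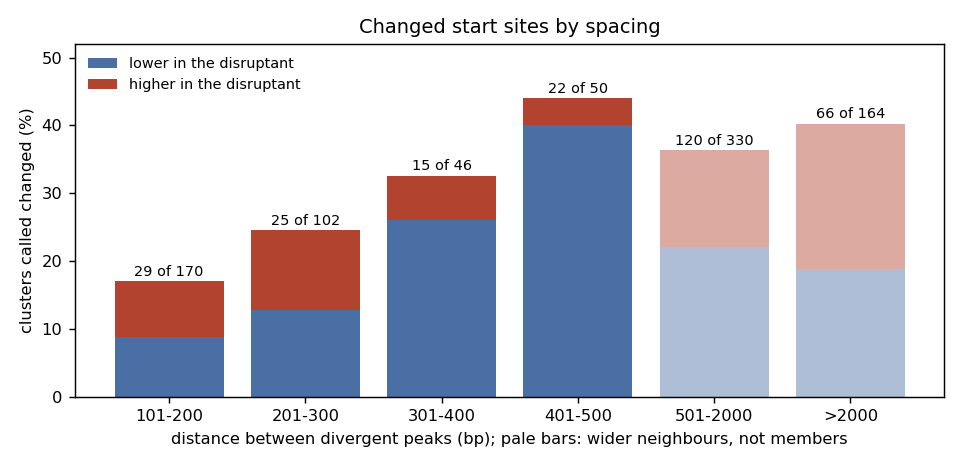
Share of clusters called changed between strains (%, edgeR adjusted p below 0.05) by the distance between divergent peaks (bp), split into lower (blue) and higher (red) in the disruptant, with counts above the bars. The share goes from 17.1% at 100 to 200 bp to 44.0% at 400 to 500 bp; pale bars are wider divergent neighbours that are not members.

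Divergent pairs changed as a unit about as often as other neighbouring leading clusters. Both partners were called in the same direction in 12 of 186 pairs (6.45%), 3 higher and 9 lower, against 7.20% of all 1209 adjacent pairs of leading clusters and 7.33% of those outside the divergent pairs. They were called in opposite directions in 2 (1.08%, against 3.64% and 4.11%). The latter count was 1 without control replicate 2, control replicate 3 or disruptant replicate 1, and 0 without disruptant replicate 2. A single partner was called in 66 pairs (35.5%, against 40.4%) and neither in 106 (57.0%, against 48.8%). Where a single partner was called, its median absolute log2 difference was 0.69, while the other partner moved by a median of 0.08 in that direction and had the same sign in 43 of 66. The called one was the weaker partner in 36 pairs and the stronger in 30. The 12 pairs changed together were spaced 90 to 477 bp, with 1, 3, 3, 1 and 4 of them in the 5 successive bins of 100 bp.

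Across all pairs the log2 differences of the partners correlated weakly, at r = 0.32 and rho 0.21 (186 pairs, all measured in the same 6 libraries). Without the pair that changed most, at 1281456 and 1281738 of scaffold 1, r was 0.21. By spacing, r was 0.24 at 100 to 200 bp (rho 0.25, 85 pairs), 0.44 at 200 to 300 bp (rho 0.13, 51 pairs), −0.015 at 300 to 400 bp (rho 0.06, 23 pairs) and 0.17 at 400 to 500 bp (rho 0.14, 25 pairs). The value at 200 to 300 bp was 0.19 without that same pair. The 2 partners' log2 differences lay a median of 0.29 apart at 100 to 200 bp and 0.41, 0.40 and 0.44 apart in the wider bins. Divergent neighbours at 500 to 2000 bp gave r = 0.37 (rho 0.42, 165 pairs), convergent neighbours up to 2000 bp 0.30 (88 pairs) and same-strand neighbours up to 4000 bp 0.17 (239 pairs). Convergent neighbours above 2000 bp gave 0.0078 (345 pairs).

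Joint movement within single libraries was weak in members and varied between kinds of other neighbours. The deviations of a library from its strain mean, on log2 of CPM plus 1, correlated between partners at 0.064, 0.14 and 0.22 for the control and 0.10, 0.16 and 0.098 for the disruptant libraries (186 pairs each). Adjacent pairs outside the divergent pairs gave 0.029 to 0.11 over the 6 libraries (1023 pairs). Among these, divergent neighbours at 500 to 2000 bp gave 0.12 to 0.35 (165 pairs) and those above 2000 bp 0.14 to 0.38 (82 pairs). Convergent neighbours above 2000 bp gave −0.033 to 0.047 (345 pairs). Among members, these values ran from −0.17 to 0.17 at 100 to 200 bp and from 0.21 to 0.63 at 400 to 500 bp. At 400 to 500 bp with 1000 or more tags on both sides (11 pairs) they ran from −0.24 to 0.82.

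**Figure D4:**
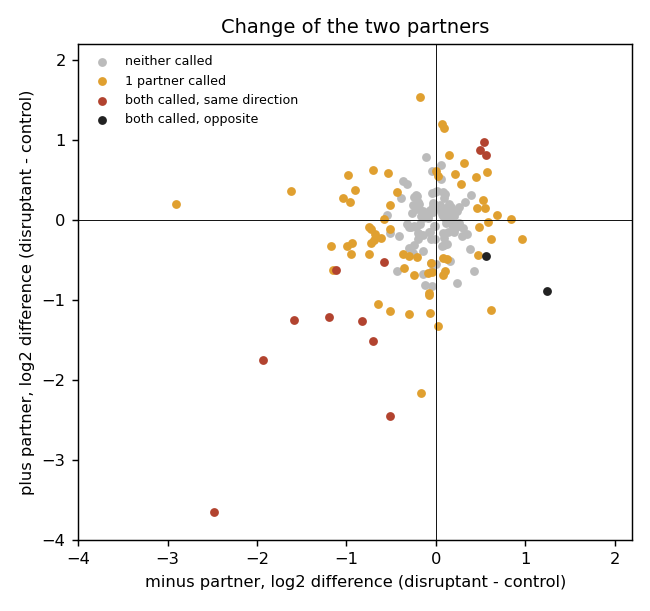
Log2 difference (disruptant minus control) of the plus partner against that of the minus partner for the 186 pairs. The 12 pairs called together (red) lie at lower left and upper right, 66 pairs with a single called partner (orange) lie along the axes, and the 2 pairs called in opposite directions (black) lie at lower right.

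The pairs that fell together included both balanced and very uneven ones. At 742495 and 742719 of scaffold 1, spaced 224 bp, the minus partner had 209, 171 and 178 tags in the control and 35, 62 and 60 in the disruptant libraries. Its plus partner had 260, 251 and 223 in the control and 73, 79 and 82 in the disruptant. All disruptant libraries were below all control libraries on both strands. The minus partner fell 3.82-fold, from 59.2 ± 6.52 to 15.5 ± 4.35 CPM (log2 −1.93, SE 0.21, edgeR adjusted p = 2.01e-06), and the plus partner 3.37-fold, from 77.7 ± 2.70 to 23.1 ± 1.30 CPM (SD, n = 3, log2 −1.75, SE 0.17, edgeR adjusted p = 5.49e-07).

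The pair at 1281456 and 1281738 of scaffold 1 changed most. Its minus partner had 1848, 2275 and 2351 control tags and 336, 420 and 497 disruptant tags (log2 −2.48, SE 0.17, edgeR adjusted p = 8.74e-09). The plus partner, 282 bp away and 65.5 times weaker, had 44, 23 and 42 control tags and 3, 1 and 5 disruptant tags (log2 −3.65, SE 0.47, edgeR adjusted p = 1.44e-05). Both partners fell with no overlap between the strains, and the weak one had only single-digit counts left.

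Of the 2 other lower pairs with the smallest p, one was spaced 126 bp, at 503680 and 503806 of scaffold 1. Its minus partner had 274, 242 and 281 tags in the control and 192, 142 and 152 in the disruptant (log2 −0.82, SE 0.17, edgeR adjusted p = 0.00143). Its plus partner had 67, 66 and 57 tags in the control and 28, 28 and 29 in the disruptant (log2 −1.26, SE 0.24, edgeR adjusted p = 0.000540). The other, at 1831252 and 1831709 of scaffold 1, was nearly balanced, with 354 and 377 pooled tags 457 bp apart. Its minus partner fell from 25.5 ± 0.757 to 11.1 ± 4.63 CPM and its plus partner from 27.2 ± 7.91 to 11.7 ± 4.75 CPM (SD, n = 3, log2 −1.19 and −1.21, edgeR adjusted p = 0.00200 and 0.00317). In both pairs the strains did not overlap on either strand.

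The second closest pair, at 773512 and 773602 of scaffold 1 (90 bp), was also called lower on both strands. Its plus partner had 97, 143 and 159 tags in the control and 41, 60 and 50 in the disruptant (log2 −1.51, SE 0.23, edgeR adjusted p = 8.58e-05). Its minus partner had 65, 71 and 64 tags and 34, 53 and 45 (log2 −0.70, SE 0.23, edgeR adjusted p = 0.0302), a call lost in 6 of the other settings (adjusted p up to 0.133). Of the remaining 4 lower pairs, that at 398420 is given below, and 3 were spaced 343 to 435 bp with log2 differences from −1.59 to −0.53.

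The 3 pairs that rose together did so by less than 2-fold. The pair at 261186 and 261402 of scaffold 1, spaced 216 bp, was among the 6 with most tags. Its minus partner had 7160, 11003 and 9700 tags in the control and 14750, 14395 and 14567 in the disruptant (log2 0.54, SE 0.15, edgeR adjusted p = 0.0110). Its plus partner, 274 times weaker, had 25, 34 and 25 tags and 47, 59 and 71 (log2 0.97, SE 0.26, edgeR adjusted p = 0.00847). Both partners kept their call under the other scalings, without the filter, in DESeq2 and with any library left out.

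The other 2 rising pairs were closer to balance. At 1927849 and 1928028 of scaffold 1 (179 bp) the plus partner rose from 52.9 ± 6.84 to 96.8 ± 7.69 CPM (log2 0.87, edgeR adjusted p = 0.000445) and the minus partner from 89.9 ± 6.44 to 126 ± 12.6 CPM (SD, n = 3, log2 0.49, edgeR adjusted p = 0.0188). At 1324742 and 1324862 of scaffold 1 (120 bp) the plus partner rose from 131 ± 25.5 to 230.2 ± 13.1 CPM (log2 0.81, edgeR adjusted p = 0.000556) and the minus partner from 38.0 ± 7.85 to 56.1 ± 7.54 CPM (SD, n = 3, log2 0.56, edgeR adjusted p = 0.0336). The minus call of the first was lost without control replicate 1, control replicate 3 or disruptant replicate 3 (adjusted p up to 0.0971). That of the second was lost under total-count scaling and without control replicate 2, control replicate 3 or disruptant replicate 3 (adjusted p up to 0.178).

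In the other 5 pairs with most tags the stronger partner was called in 3 and the weaker in none. At 759321 and 759520 of scaffold 1 the plus partner had 8714, 13031 and 10760 tags in the control and 17595, 18345 and 16842 in the disruptant (log2 0.59, SE 0.14, edgeR adjusted p = 0.00446). Its minus partner, with 529 pooled tags, went from 21.5 ± 0.718 to 32.1 ± 12.9 CPM (SD, n = 3, log2 0.58, SE 0.26, edgeR adjusted p = 0.109), and passed the test when disruptant replicate 1 was left out (adjusted p = 0.00267). The log2 differences of these partners were nearly equal, and the balance was not called (edgeR adjusted p = 0.851). At 1335385 and 1335825 of scaffold 1 (440 bp) the minus partner had 7931, 11562 and 9206 tags and 14803, 16079 and 15220 (log2 0.58, edgeR adjusted p = 0.00454). Its plus partner was at 17.2 ± 6.08 and 16.8 ± 3.67 CPM (SD, n = 3, edgeR adjusted p = 0.958).

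The other strong pairs had 1 or no called partner. At 840580 and 840859 of scaffold 1 (279 bp) the minus partner rose from 2532 ± 497 to 3705 ± 89.2 CPM (log2 0.55, edgeR adjusted p = 0.00862), with the plus partner at 531 ± 127 and 589 ± 67.4 CPM (SD, n = 3, edgeR adjusted p = 0.555). Neither partner passed at 403791 and 404101 of scaffold 2 (310 bp), with the minus partner at 3521 ± 548 and 3787 ± 102 CPM and the plus partner at 585 ± 93.9 and 732 ± 138 CPM (SD, n = 3, edgeR adjusted p = 0.627 and 0.152). The plus partner there passed without disruptant replicate 1 (adjusted p = 0.0288). In the pair at 267134 of scaffold 2 adjusted p was 0.153 for the minus and 0.913 for the plus partner by edgeR. In all, the stronger partner was called higher in 4 of the 6 pairs with most tags. Control replicate 1 was the lowest library of the stronger partner in each of the 6, called or not.

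The strand balance, the ratio of plus to minus tags, was then tested as an interaction of partner and strain in edgeR, with the library as a block, over all 1209 adjacent pairs of leading clusters. It was called changed in 42 of 186 divergent pairs (22.6%), against a background of 34.4% of all adjacent pairs and 36.6% of those outside the divergent pairs. The balance moved towards the plus partner in 21 and towards the minus partner in 21, by a median of 0.97 on the log2 scale (0.54 to 3.06). Of the 42, 32 had a single called partner, 3 had both called and 7 had neither. By spacing, the balance changed in 11 of 85 pairs at 100 to 200 bp (12.9%), 14 of 51 at 200 to 300 bp (27.5%), 7 of 23 at 300 to 400 bp (30.4%) and 9 of 25 at 400 to 500 bp (36.0%). Without disruptant replicate 2 the total of 42 became 23, and with any other library left out it was 30 to 39. The stronger strand changed over in 4 of the 42.

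Among the 5 pairs with the smallest p for balance, 2 had both partners called and 3 had 1. At 274198 and 274525 of scaffold 2 (327 bp) the partners were called in opposite directions. The minus partner had 1879, 1951 and 1751 tags in the control and 4645, 4719 and 4892 in the disruptant (log2 1.25, SE 0.13, edgeR adjusted p = 1.18e-06). The plus partner had 59, 70 and 63 tags and 36, 30 and 45 (log2 −0.89, SE 0.24, edgeR adjusted p = 0.00894). The plus-to-minus ratio went from 0.0344 ± 0.00262 to 0.00777 ± 0.00142 (SD, n = 3, log2 −2.15, SE 0.23, edgeR adjusted p = 1.48e-05). Without disruptant replicate 2 the plus partner no longer passed (adjusted p = 0.0657).

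At 398420 and 398897 of scaffold 1 (477 bp) both partners fell, but unequally. The plus partner had 199, 182 and 186 tags in the control and 25, 47 and 39 in the disruptant (log2 −2.46, SE 0.22, edgeR adjusted p = 2.33e-07). The minus partner had 2756, 3086 and 2887 tags and 1898, 2111 and 2582 (log2 −0.51, SE 0.14, edgeR adjusted p = 0.0128), a call lost without control replicate 2, disruptant replicate 1 or disruptant replicate 2 (adjusted p up to 0.0919). The ratio went from 0.0652 ± 0.00665 to 0.0168 ± 0.00479 (SD, n = 3, edgeR adjusted p = 2.67e-05).

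At 485741 and 486087 of scaffold 1 (346 bp) only the plus partner was called. It had 99, 90 and 90 tags in the control and 289, 314 and 270 in the disruptant (log2 1.54, SE 0.16, edgeR adjusted p = 1.59e-06), while the minus partner had 432, 550 and 580 and 414, 568 and 516 (edgeR adjusted p = 0.476). The ratio went from 0.183 ± 0.0405 to 0.591 ± 0.0936 (SD, n = 3, edgeR adjusted p = 5.98e-05). This was the largest rise among the called members.

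At 1888571 and 1888847 of scaffold 2 (276 bp) the weaker, minus partner fell from 20.2 ± 9.68 to 2.66 ± 0.534 CPM (SD, n = 3, log2 −2.91, SE 0.37, edgeR adjusted p = 1.09e-05). The plus partner had 255, 328 and 261 tags and 328, 396 and 317 (edgeR adjusted p = 0.378). On the minus strand control replicate 1 was the highest of the control libraries, and all control libraries were above the disruptant ones. The ratio went from 5.14 ± 2.30 to 39.6 ± 9.84 (SD, n = 3, log2 3.06, SE 0.42, edgeR adjusted p = 8.28e-05).

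At 1162405 and 1162675 of scaffold 2 (270 bp) the plus partner had 542, 392 and 496 tags in the control and 147, 104 and 92 in the disruptant (log2 −2.17, SE 0.19, edgeR adjusted p = 2.44e-07). The minus partner had 71, 53 and 50 tags and 62, 35 and 69, which overlapped (edgeR adjusted p = 0.694). The ratio went from 8.32 ± 1.39 to 2.23 ± 0.829 (SD, n = 3, edgeR adjusted p = 0.000195).

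The second pair called in opposite directions lay at 818938 and 819241 of scaffold 1 (303 bp). Its minus partner had 2499, 3658 and 3352 tags in the control and 4891, 5130 and 5145 in the disruptant (log2 0.57, SE 0.15, edgeR adjusted p = 0.00839). Its plus partner had 589, 612 and 684 tags and 402, 512 and 570 (log2 −0.46, SE 0.16, edgeR adjusted p = 0.0369), a call lost in 6 of the other settings (adjusted p up to 0.205). The change of balance had an edgeR adjusted p = 0.00113.

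The extremes of spacing gave mixed results. In the pair with peaks 9 bp apart, the balance was called (edgeR adjusted p = 0.0247) but lost without control replicate 1 or 3 or disruptant replicate 1 or 3. The minus partner had 77, 64 and 79 tags in the control and 24, 48 and 33 in the disruptant (log2 −1.18, SE 0.26, edgeR adjusted p = 0.00210). Its broad plus partner was at 558 ± 115 and 445 ± 76.0 CPM (SD, n = 3, edgeR adjusted p = 0.163), and passed without control replicate 1 (adjusted p = 0.0194). In the 494 bp pair the plus partner had 1188, 1313 and 1346 tags and 1138, 893 and 1044 (log2 −0.43, SE 0.15, edgeR adjusted p = 0.0351), a call lost in 5 of the other settings (adjusted p up to 0.269). In the 491 bp pair, at 664048 and 664539 of scaffold 1, the plus partner fell from 170.2 ± 13.5 to 106 ± 17.2 CPM (log2 −0.69, edgeR adjusted p = 0.00237), and the minus partner was at 633 ± 26.8 and 535 ± 66.1 CPM (SD, n = 3, edgeR adjusted p = 0.218).

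**Figure D5:**
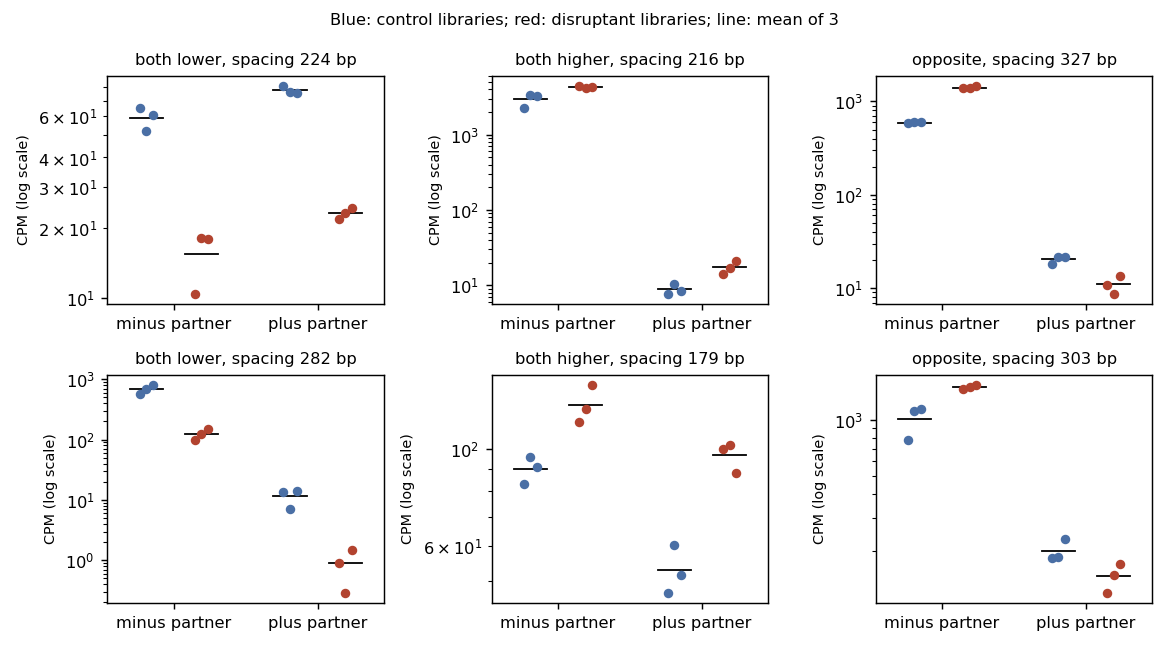
CPM (log scale) of the minus and plus partner in each control (blue) and disruptant (red) library for 6 pairs, with a line at the mean of 3. Left, pairs lower on both strands, spaced 224 and 282 bp; middle, pairs higher on both strands, spaced 216 and 179 bp; right, pairs called in opposite directions, spaced 327 and 303 bp; the strains do not overlap in any of these partners.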

How the data were processed

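The deposited values were raw counts of tags per position and strand, whole numbers in 1 column per library, matched to the samples by the column names. Per the submitters' processing notes FastQC, BWA and bedtools were used; no version, genome build or rule for multiply mapped reads was found in those sources. Positions were taken as counting from 0, which no source states, and 1 was added to each. Clusters, leading clusters and pairs were built as described above, and ties for a peak went to the lowest position. All sequences of the table entered 1 fit of the 4083 clusters kept by filterByExpr, with TMM scaling, no covariates and the edgeR 4.0.16 quasi-likelihood test (R 4.3.3); limma 3.58.1 was an alternative for balance. CPM uses the TMM-scaled totals of those clusters, as mean ± SD of 3 libraries. DESeq2 1.42.0 was run as an alternative. Scripts were tested on simulated data. The members and lists were chosen with earlier results of these data known. Pairs named are the 6 with most tags, the 4 with the smallest p (the larger of the 2 partners') per joint direction (3 were higher), up to 5 in opposite directions, the 5 with the smallest p for balance, and the 2 shortest and 2 longest. Totals of the table need not be the full depth of a library, and small counts limit precision.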

Additional observations from a re-analysis of the deposited data

How the results depend on the processing

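The count of 94 called members was 71 to 91 with 1 library left out, 57 (31 lower) with spacing up to 300 bp, 30 with 1000 or more tags on both sides and 28 with a 2-fold minimum; other settings gave 70 to 117. With 1 library left out, 19.1% to 24.5% of members were called, against 18.4% to 21.2% of all tested clusters. Up to 300 bp 20.7% of members were called, against 24.5%. The settings with 70 to 117 gave 21.2% to 27.6% of members, against 9.71% (without the filter) to 25.7%. The 12 pairs changed together were 8 to 12 with 1 library left out, 7 up to 300 bp and 2 with 1000 or more tags. The correlation of 0.32 was 0.29 to 0.34 with 1 library left out, 0.26 with a floor of 200 tags, 0.38 with a leading distance of 3000 bp, 0.38 up to 300 bp, 0.21 as Spearman's rho, 0.13 with 1000 or more tags and 0.21 without the pair that changed most. The 42 changes of balance were 26 up to 300 bp, 15 with 1000 or more tags and 23 to 39 with 1 library left out. That last range was 12.4% to 21.0% of divergent pairs (main 22.6%), against 26.5% to 31.5% of all adjacent pairs (main 34.4%). The cause of these shifts was not tested. Several of these settings also hold fewer pairs or libraries.

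In this paragraph, widths and log2 ratios are means over the 6 libraries of each library's median. Shares of scaffold tags are likewise means over the 6 libraries. Joining within 10 bp, within 40 bp, a floor of 200 tags, leading distances of 1000 and 3000 bp and spacing up to 300 bp gave median widths of 40.7, 58.5, 50.8, 50.5, 51.0 and 45.7 bp (main 48.7, or 67.2 for the central 90% of tags) and member shares of scaffold tags of 23.5%, 29.7%, 22.1%, 30.8%, 21.6% and 21.0% (main 28.4%). In the same order but without the leading distance of 1000 bp (206.5 bp and 2.57), the median spacings were 208.5, 216, 213, 216 and 182.5 bp and the median absolute log2 ratios 2.48, 2.77, 2.17, 2.39 and 2.36 (main 2.58).

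With 1 library left out, log2 differences of 5 partners that had not passed the test took both signs: −0.30 to 0.23 (1335825), −0.042 to 0.29 (840859), −0.33 to 0.12 (1162405), −0.015 to 0.22 (403791) and −0.33 to 0.18 (267369). Replicate numbers were not taken as pairing the libraries in the main fits. Deviations of same-numbered libraries correlated at 0.10, 0.062 and 0.045 over all tested clusters (0.13, 0.20 and 0.15 over members, each the best match there). Differently numbered libraries of the 2 strains gave −0.10 to 0.049 over all tested clusters and −0.11 to −0.033 over members. Whether the numbers pair the libraries was not tested. With a replicate block 36 members were called higher and 65 lower, 12 pairs together and 57 in balance, while 25.7% of all tested clusters were called and 40.8% of all adjacent pairs changed in balance. Settings with 1000 or more tags, without the most changed pair, without overlapping clusters and with a 2-fold minimum were chosen after seeing the data.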

Other observations

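Joint change in the divergent pairs differed in size between the scaffolds. The log2 differences of the partners correlated at r = 0.52 (rho 0.32) over 124 pairs of scaffold 1 and at r = −0.037 (rho −0.013) over 62 pairs of scaffold 2. Of the 12 pairs changed together, 11 lay on scaffold 1. They were 8.87% of its pairs, against 1.61% on scaffold 2 and 7.20% of all adjacent pairs. Other adjacent pairs were not split by scaffold. With 1 library left out r ran from 0.48 to 0.54 and from −0.10 to 0.033, and without the pair that changed most it was 0.39 on scaffold 1. The difference between the scaffolds was not tested. In the 40 pairs with partners within 2-fold in strength, a set not planned beforehand, r was 0.59 (rho 0.34). Of these, 30 had 1000 or more tags on both sides. Over all 75 pairs with that many tags r was 0.13, and r of the 30 alone is not given. The 40 include the pair at 742495 of scaffold 1, with log2 differences of −1.93 and −1.75, and r without it is not given either. In the 40 pairs, 17 of 80 members were called (24.5% of all tested and 31.0% of leading clusters were). Among them 4 pairs changed together (7.20% of all adjacent pairs did).

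A few members were very sharp or very broad, chosen here after their values were seen. The plus partner with its peak at 1986408 of scaffold 2 had 92.8% of its 1530 tags at that base, and the one at 1022502 of scaffold 2 had 71.9% of 51040 tags at its peak. The widest was the plus partner at 2001878 to 2003156 of scaffold 1, where the central 80% of 7015 tags spanned 884 bp.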
